A study of Homo sapiens with 5 samples.

Results

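The nuclear genes of oxidative phosphorylation were examined for promoter peaks of the retinoblastoma protein (Rb). They were chosen by symbol alone, as protein-coding genes of the autosomes and chromosome X that start with NDUFA, NDUFB, NDUFC, NDUFS, NDUFV, UQCR, ATP5F1, ATP5M, ATP5P or COX4 to COX8, together with SDHA, SDHB, SDHC, SDHD, CYC1 and CYCS. The rule found 99 of 19970 protein-coding genes in GENCODE 44. These were 38 genes of complex I, 8 complex I assembly factors (NDUFAF1 to NDUFAF8), 4 of complex II, 10 of complex III, cytochrome c (CYCS), 19 of complex IV and 19 of complex V. NDUFA4 and NDUFA4L2 were counted with complex IV, where their proteins belong despite the symbol. The 99 genes included 9 tissue-restricted isoforms or retrocopies and 2 readthrough genes, NDUFC2-KCTD14 and ATP5MF-PTCD1, which share the promoters of NDUFC2 and ATP5MF.

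CUT&RUN uses an antibody to bring a nuclease to its target on chromatin, and the DNA cut loose there is sequenced. It was run for Rb on the parental ZR-75-1 line, hormone receptor-positive breast cancer cells, after 4 days with DMSO or with abemaciclib, a CDK4 and CDK6 inhibitor, at 500 nM. Each treatment had 2 Rb libraries, numbered replicates 1 and 2, and 1 IgG2a library from DMSO-treated cells served as the negative control. The Rb lists held 1438 and 2582 peaks in DMSO and 13960 and 12234 in abemaciclib, and the IgG2a list held 589. The lists carry no read counts, so the depth behind a peak is unknown, and a gene without a peak is one where none was called. A gene was called bound in a library when a peak overlapped the promoter, from 2000 bp before to 500 bp after any of its transcription start sites (TSSs). These are bulk measurements, in which more cells with Rb at a promoter and more Rb per cell cannot be told apart.

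Oxidative phosphorylation passes electrons from NADH through complex I, or from succinate through complex II, to complex III, cytochrome c and complex IV, and the proton gradient built on the way drives ATP synthase, complex V. Complexes I, III, IV and V join subunits encoded by mitochondrial DNA to a larger number encoded in the nucleus, and complex II is wholly nuclear. The nuclear genes are mostly housekeeping genes with CpG-rich promoters, and the factors NRF1, GABP (an ETS factor) and YY1 are classical activators of many of them. Rb binds E2F factors at cell cycle promoters and keeps them silent until CDK4 and CDK6 phosphorylate it.

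Promoter stretches of 10 of these genes show the letters that recur in the results. They come from genes with a peak in DMSO (ATP5MC1, NDUFS8, NDUFAF8), in abemaciclib alone (CYCS, COX8A, SDHB, COX5B, NDUFB4) and with no peak (ATP5F1B, NDUFS4). The first 3 are not typical of their class. Among the 12 genes with a DMSO peak, only they had at least 3 CCAAT matches in the window counted below. Each is the longest stretch within 250 bases before the canonical TSS that holds no annotated exon, read from the hg38 genome in the direction of the gene. Capitals mark matches, on either strand, to CCAAT (the NF-Y site), to CCGGAAG (the ETS site) and to GCGCATGCG (the NRF1 site). They also mark the E2F site, searched as TTCCCGC, with the variants TTCGCGC for the middle letters, then TTGCCGC as the next form, and TTGGCGC as the last. AAGATGGCG (YY1) was searched too and had no match in these stretches. The E2F match TTGGCGC can overlap a CCAAT match on the other strand, and TTCGCGC can overlap the NRF1 letters, as it does in NDUFB4.
ATP5MC1, chr17:48892678-48892764, plus strand: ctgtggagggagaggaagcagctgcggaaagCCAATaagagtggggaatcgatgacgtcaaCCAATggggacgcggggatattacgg
NDUFS8, chr11:68030462-68030616, plus strand: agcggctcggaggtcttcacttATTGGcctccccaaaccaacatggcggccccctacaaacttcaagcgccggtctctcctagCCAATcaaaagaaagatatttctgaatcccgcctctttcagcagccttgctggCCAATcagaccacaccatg
NDUFAF8, chr17:81239092-81239304, plus strand: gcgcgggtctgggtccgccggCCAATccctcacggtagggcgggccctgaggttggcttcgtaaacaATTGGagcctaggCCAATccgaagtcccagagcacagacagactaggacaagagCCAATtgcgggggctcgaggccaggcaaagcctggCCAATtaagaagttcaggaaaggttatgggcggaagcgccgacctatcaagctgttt
CYCS, chr7:25125261-25125510, minus strand: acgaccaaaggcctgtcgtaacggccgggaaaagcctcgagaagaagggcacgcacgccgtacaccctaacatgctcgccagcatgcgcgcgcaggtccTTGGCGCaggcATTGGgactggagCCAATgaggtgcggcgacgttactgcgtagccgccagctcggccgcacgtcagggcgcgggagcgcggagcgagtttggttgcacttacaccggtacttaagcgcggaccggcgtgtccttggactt
COX8A, chr11:63974370-63974619, plus strand: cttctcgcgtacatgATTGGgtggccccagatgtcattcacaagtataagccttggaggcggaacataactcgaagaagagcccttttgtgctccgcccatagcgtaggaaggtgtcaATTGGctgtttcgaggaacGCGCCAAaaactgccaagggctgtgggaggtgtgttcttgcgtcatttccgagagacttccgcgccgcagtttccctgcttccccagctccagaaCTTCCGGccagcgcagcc
SDHB, chr1:17054033-17054282, minus strand: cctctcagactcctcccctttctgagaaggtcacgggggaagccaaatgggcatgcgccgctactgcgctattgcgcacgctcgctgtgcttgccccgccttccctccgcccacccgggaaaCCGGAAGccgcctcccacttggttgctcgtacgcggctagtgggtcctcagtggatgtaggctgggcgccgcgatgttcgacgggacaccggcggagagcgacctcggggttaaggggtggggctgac
COX5B, chr2:97645812-97646061, plus strand: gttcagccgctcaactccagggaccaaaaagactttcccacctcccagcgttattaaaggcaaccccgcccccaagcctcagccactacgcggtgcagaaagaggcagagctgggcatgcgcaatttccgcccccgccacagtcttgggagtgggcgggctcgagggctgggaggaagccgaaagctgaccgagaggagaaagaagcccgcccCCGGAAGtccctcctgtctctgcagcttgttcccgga
NDUFB4, chr3:120596086-120596327, plus strand: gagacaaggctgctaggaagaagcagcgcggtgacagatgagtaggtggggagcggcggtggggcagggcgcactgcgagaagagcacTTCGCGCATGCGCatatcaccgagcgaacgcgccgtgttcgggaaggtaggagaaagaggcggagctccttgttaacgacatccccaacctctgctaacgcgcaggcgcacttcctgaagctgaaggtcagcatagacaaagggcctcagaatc
ATP5F1B, chr12:56645985-56646234, minus strand: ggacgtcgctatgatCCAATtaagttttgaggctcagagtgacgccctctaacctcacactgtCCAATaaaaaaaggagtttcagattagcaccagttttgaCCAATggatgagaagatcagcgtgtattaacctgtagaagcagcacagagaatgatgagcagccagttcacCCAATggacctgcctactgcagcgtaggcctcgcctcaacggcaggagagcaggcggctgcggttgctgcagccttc
NDUFS4, chr5:53560389-53560632, plus strand: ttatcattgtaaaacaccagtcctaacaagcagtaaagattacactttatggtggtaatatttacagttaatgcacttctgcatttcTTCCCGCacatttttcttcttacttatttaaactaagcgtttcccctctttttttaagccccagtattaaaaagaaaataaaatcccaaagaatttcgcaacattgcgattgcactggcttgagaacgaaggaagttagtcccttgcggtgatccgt

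The first question was how many oxidative phosphorylation promoters carried Rb in each treatment. In DMSO, 6 of the 99 genes had a promoter peak in replicate 1 (6.06%) and 11 in replicate 2 (11.1%), against 7.86% and 12.4% of all coding genes. In abemaciclib, 79 had one in replicate 1 (79.8%) and 73 in replicate 2 (73.7%), against 58.0% and 53.9% of all coding genes. The mean rose from 8.50 ± 3.54 to 76.0 ± 4.24 genes per library (SD, n = 2 each), and the treatments did not overlap. The difference of 67.5 genes had a two-sided p of 0.333 in an exact permutation test, the smallest that 2 libraries against 2 allow. No oxidative phosphorylation gene and 6 coding genes had a promoter peak in IgG2a.

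Relative to the other coding genes, the share of oxidative phosphorylation genes bound differed by −1.81 and −1.33 percentage points in DMSO replicates 1 and 2. In abemaciclib it was higher by 21.9 and 20.0 points. Part of this went with the type of promoter. Regions of 1000 bp around the canonical TSS were CpG-rich (at least 50% GC and an observed over expected CpG ratio of at least 0.6) in 86 of the 99 genes (86.9%) and in 64.8% of the other coding genes. Among CpG-rich genes alone, the difference was −4.23 and −5.99 points in DMSO, and 7.84 and 6.10 points in abemaciclib. The intervals of the shares overlapped there, at 78.5 to 92.7% against 78.7 to 80.1% in abemaciclib replicate 1.

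**Figure D1:**
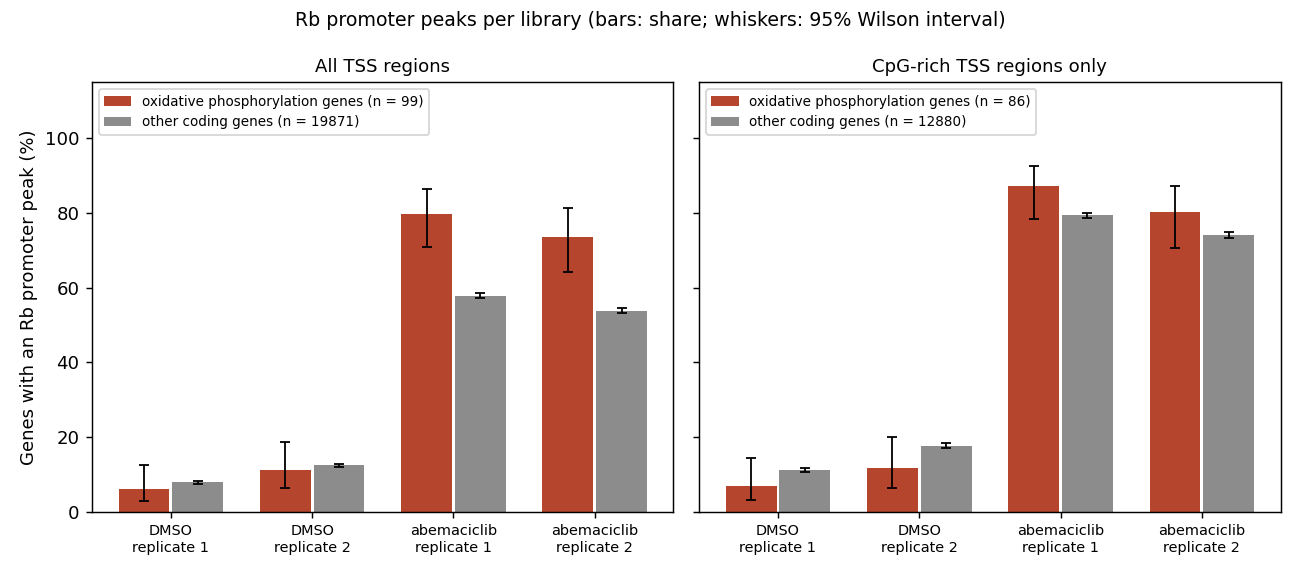
Share of genes with an Rb promoter peak (y axis, %) in each of the 4 Rb libraries (x axis), for the 99 oxidative phosphorylation genes and the 19871 other coding genes on the left, and for those with a CpG-rich TSS region on the right. Bars are shares and whiskers 95% Wilson intervals. The abemaciclib bars of the oxidative phosphorylation genes stand at 79.8% and 73.7% on the left, above the other genes, and the gap is narrower on the right.

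By pattern, 60 of the 99 genes (60.6%, 95% Wilson interval 50.8 to 69.7%) were gained, that is, had a peak in each abemaciclib library and none in DMSO, against 38.9% of all coding genes. The difference from the other coding genes was 21.9 percentage points (12.0 to 30.9). Among genes with a CpG-rich TSS region it was 13.2 points, with 66.3% gained (55.8 to 75.4%) against 53.1% of the other coding genes. A peak in both abemaciclib libraries, whatever the DMSO lists held, was found at 72 genes (72.7%), against 52.7%. Among CpG-rich genes this share was 79.1% (69.3 to 86.3%), against 72.8% of the other coding genes (72.0 to 73.5%), so the gap was narrower there. The gained share also depends on DMSO peaks, which were fewer at the CpG-rich oxidative phosphorylation genes. All 4 libraries had a peak at 5 genes (5.05%), against 6.41%. A further 7 genes (7.07%) had a peak in 1 DMSO and both abemaciclib libraries, against 7.39%. In 1 abemaciclib library only, 8 genes (8.08%) had a peak, against 6.53%, and 19 genes (19.2%) had none in any library, against 40.7%. These shares describe a gene list and were not tested, and the intervals cover counting error over genes that are not replicates.

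At equal list size few genes of either kind were gained. With the 1438 strongest peaks of every library, 6 and 7 of the genes were bound in DMSO and 7 and 6 in abemaciclib, and 1 was gained. That is 1.01%, against 1.12% of the other coding genes, shares too low for an excess to be seen or called absent. Promoter windows overlapped that of another coding gene at 51 of the 99 genes (51.5%), against 27.2% of the other coding genes. Of these, 36 were gained (70.6%), compared with 24 of the 48 genes that had a window of their own. Among the other coding genes the gained shares were 48.8% and 35.0%, so that the difference was 15.0 points among genes with a window of their own. Among CpG-rich genes with a window of their own it was 5.94 points (57.9% against 51.9%), a subset chosen after seeing the data. A peak at a shared window cannot be assigned to either gene.

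**Figure D2:**
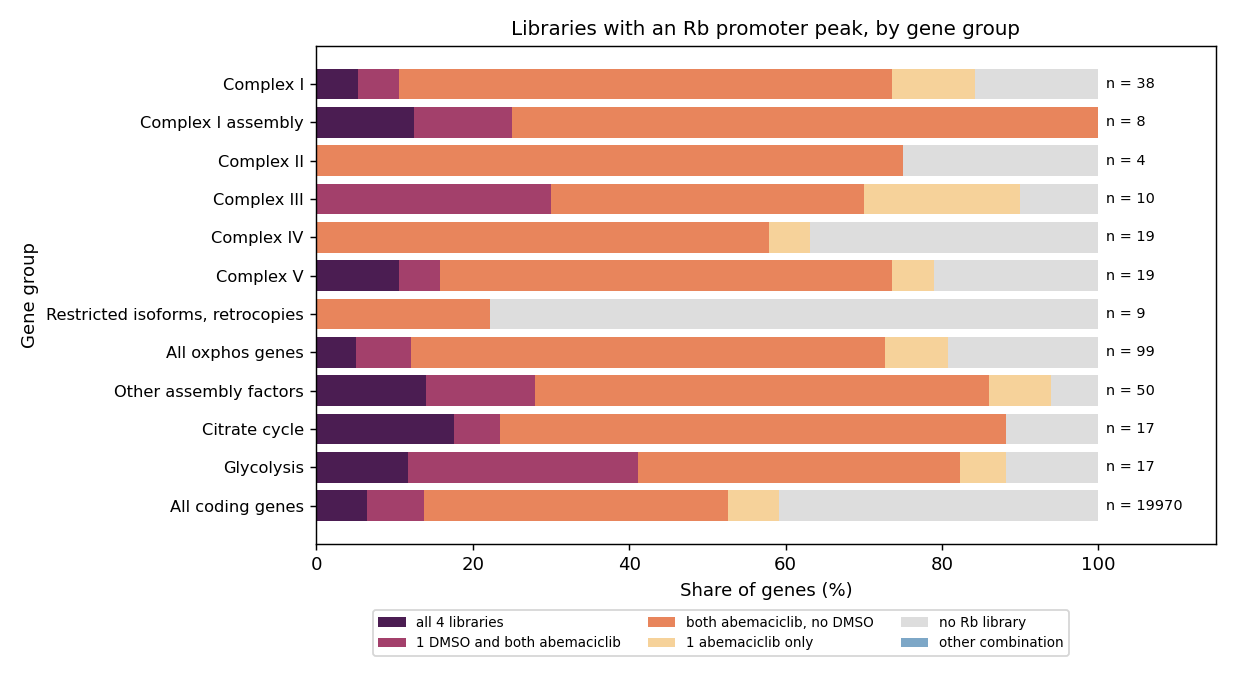
Libraries in which genes had an Rb promoter peak, as a share of each gene group (x axis, %), with the number of genes beside each bar. Gained genes (both abemaciclib libraries, no DMSO library) make up 60.6% of the oxidative phosphorylation genes and 38.9% of all coding genes, while the tissue-restricted isoforms and retrocopies are mostly without a peak.

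Complex I takes electrons from NADH and is the largest of the complexes. Of its 38 genes, 24 were gained (63.2%, 47.3 to 76.6%), 4 had a DMSO peak, 4 had a peak in 1 abemaciclib library and 6 had none. Across all coding genes, 38.9% were gained and 13.9% had a DMSO peak. NDUFS8, an iron-sulfur subunit of the arm that passes electrons to ubiquinone, was bound in all 4 libraries, in each case with a promoter window of its own. Its peaks had a fold enrichment of 9.63 and 12.5 in DMSO and 63.1 and 63.4 in abemaciclib, and ranked 78, 92, 96 and 79 in the 4 lists. It was thus among the strongest peaks of every list. In abemaciclib replicate 1 the peak spanned chr11:68030096-68031418 with its summit at −295 bp from the canonical TSS (negative is upstream). The fold is the peak caller's own ratio within a library and was not compared between libraries.

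NDUFA6, an accessory subunit of the same arm, also had a peak in all 4 libraries, at folds of 7.28 and 7.05 in DMSO and 53.8 and 35.5 in abemaciclib. NDUFC1 and NDUFV2 had a peak in DMSO replicate 2 and in each abemaciclib library. For NDUFV2, an iron-sulfur subunit of the NADH-oxidizing module, the DMSO peak was close to the threshold, at rank 2532 of 2582, with folds of 3.92 in DMSO and 8.51 and 7.83 in abemaciclib. NDUFC1, a small membrane-arm subunit, had folds of 5.37 in DMSO and 27.8 and 15.8 in abemaciclib, and shares its promoter with NAA15.

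The best ranked gained genes of complex I were NDUFA11, NDUFS3 and NDUFB11. NDUFA11, an accessory subunit of the membrane arm, had folds of 27.3 and 26.9 in abemaciclib, NDUFS3, a core subunit, of 32.6 and 23.2, and NDUFB11, on the X chromosome, of 26.6 and 22.3. All 3 share their windows with other coding genes, VMAC, PTPMT1 and RBM10 among them, and the NDUFS3 summit of replicate 1 lay 18 bp from a TSS of KBTBD4. NDUFA10, NDUFB7, NDUFC2 and NDUFC2-KCTD14 had a peak in abemaciclib replicate 1 only, at folds from 3.67 for NDUFA10 to 6.64 for NDUFB7. NDUFA5, NDUFA7, NDUFA8, NDUFB8, NDUFS4 and NDUFS5 had no peak. For NDUFS4, an accessory subunit often mutated in complex I deficiency, the nearest abemaciclib summits were 80.7 and 451 kb away.

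The complex I assembly factors, which build the complex but are not part of it, were bound in both abemaciclib libraries in 8 of 8 cases, 6 of them gained. Across all coding genes, 52.7% were bound in both and 38.9% were gained. Of the 8, 7 share their window with another coding gene. Among coding genes outside the 99 with such a window, 72.3% were bound in both and 48.8% were gained. NDUFAF7, a mitochondrial methyltransferase, was the best ranked of the gained, with folds of 26.0 and 21.0, at a window shared with CEBPZ. NDUFAF8 had a peak in DMSO replicate 2 at a fold of 4.20, with 27.6 and 24.5 in abemaciclib, at a window shared with TEPSIN.

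NDUFAF6 shows how the choice of TSS sets a call. It had a peak in all 4 libraries, with folds of 13.5 and 12.9 in DMSO and 106 and 68.0 in abemaciclib. In abemaciclib replicate 1 that summit was at −129610 bp from the canonical TSS and at an alternative start, and 125 bp from a TSS of CCNE2, which encodes cyclin E2, an E2F target. At the canonical TSS, NDUFAF6 had folds of 11.6 and 7.25 in abemaciclib and no peak in DMSO, the pattern of a gained gene.

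Complex II, succinate dehydrogenase, also serves in the citrate cycle. None of its 4 genes had a DMSO peak, against 13.9% of all coding genes, so few genes that this says little. Of the 4, 3 were gained (75.0%, 30.1 to 95.4%), against 38.9%. SDHA, the flavoprotein subunit, had folds of 18.2 and 18.3 in abemaciclib at a window shared with CCDC127. SDHB, the iron-sulfur subunit, had 12.1 and 4.60, and SDHD, a membrane anchor, 4.23 and 4.60. At q of at most 1e-05, 1 of the 4, SDHA, stayed gained, SDHB had a peak in 1 abemaciclib library and SDHD had none. SDHC, the partner of SDHD in the membrane, had no peak, with its nearest summits 76.0 and 76.1 kb away.

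Complex III passes electrons from ubiquinol to cytochrome c. Of its 10 genes, 3 had a peak in 1 DMSO library, 4 were gained (40.0%, 16.8 to 68.7%), 2 had a peak in 1 abemaciclib library and 1 had none. Across all coding genes, 38.9% were gained, close to the share here, and 7.39% had a peak in 1 DMSO and both abemaciclib libraries. UQCRC1 and UQCRC2, the core proteins, both had windows of their own. UQCRC2 had folds of 4.56 in DMSO replicate 1 and of 29.7 and 23.9 in abemaciclib, and UQCRC1 of 7.16 in DMSO replicate 2 and of 21.1 and 17.7 in abemaciclib. Their DMSO peaks were thus in different libraries. UQCR10, a small subunit whose promoter is shared with ZMAT5, had a weak peak in DMSO replicate 2 (fold 3.54, rank 2502 of 2582) and strong ones in abemaciclib, at 45.6 and 34.6. CYC1, the cytochrome c1 subunit, was gained, with folds of 16.6 and 13.3. UQCRFS1, the Rieske iron-sulfur protein, had a peak in abemaciclib replicate 1 only, at 7.16, and UQCRQ in replicate 2 only, at 6.66. CYCS, the soluble carrier between complexes III and IV, was gained, with folds of 20.9 and 16.6 and summits at −134 and −236 bp from the TSS.

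Complex IV, cytochrome c oxidase, reduces oxygen to water. None of its 19 genes had a DMSO peak, against 13.9% of all coding genes, a difference that was not tested. Of the 19, 11 were gained (57.9%, 36.3 to 76.9%), against 38.9%. Its nuclear subunits come in widely expressed and tissue-restricted forms, and the 9 pairs of such paralogues and copies, complexes III and V included, differed in their calls. The widely expressed gene had a peak in both abemaciclib libraries in 7 of 9 pairs, and the restricted isoform or retrocopy in 2 of 9. Across all coding genes the share was 52.7%. Of the restricted isoforms and retrocopies, only COX6A2 and COX6B2 had a CpG-rich TSS region, and none shared its window. Of the widely expressed genes with peaks, COX4I1, COX6A1, UQCRH and ATP5MG share their windows with another coding gene. The pairs thus differed in promoter type, and some in window sharing, as well as in tissue range. None of these was tested as a cause. COX4I1 had folds of 10.8 and 10.1, whereas COX4I2, the lung isoform, had no peak. COX6A1 had folds of 21.6 and 13.4, whereas COX6A2, the heart and muscle isoform, had none.

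The remaining pairs followed 3 patterns. COX8A, at 11.5 and 9.20 in abemaciclib, UQCRH, at 10.4 and 13.1, and ATP5MG, at 12.7 and 13.1, had peaks, and COX8C, UQCRHL and ATP5MGL had none. COX7A2 and COX7A1 had no peak, nor had COX7B and COX7B2. In the last 2 pairs both genes were gained. COX6B1 had folds of 8.83 and 7.09 and the testis isoform COX6B2 of 20.1 and 14.0. NDUFA4 had folds of 12.3 and 11.1 and NDUFA4L2 of 23.4 and 18.8. The NDUFA4L2 peaks of these folds overlapped its window only at their edge, with summits 2879 and 2899 bp from the nearest of its starts. Weaker peaks, with folds of 8.78 and 9.76, had their summits within the window, 394 and 202 bp from an alternative start, and no peak was called at the canonical TSS. COX6C had a peak in abemaciclib replicate 1 only, at 5.44. Without the restricted isoforms, 9 of 12 complex IV genes were gained (75.0%, 46.8 to 91.1%).

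Complex V makes ATP in its F1 head, driven by a ring of c subunits in the membrane. Of its 19 genes, 11 were gained (57.9%, 36.3 to 76.9%), 3 had a DMSO peak, 1 had a peak in 1 abemaciclib library and 4 had none. Across all coding genes, 38.9% were gained and 13.9% had a DMSO peak. ATP5MC1, ATP5MC2 and ATP5MC3 encode the same mature c subunit from separate loci. ATP5MC1 had a peak in all 4 libraries, with folds of 9.65 and 10.4 in DMSO and 62.2 and 50.4 in abemaciclib, and a window of its own. ATP5MC2, at 22.5 and 15.2 in abemaciclib, and ATP5MC3, at 17.6 and 14.6, were gained. The genes for 1 protein thus had different calls in DMSO.

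The F1 head is built of alternating alpha and beta subunits, from ATP5F1A and ATP5F1B. ATP5F1A was bound in all 4 libraries, at folds of 5.11 and 14.6 in DMSO and 112 and 80.4 in abemaciclib. That peak lay about an alternative start, with the summit of abemaciclib replicate 1 at −6199 bp from the canonical TSS and 73 bp from a TSS of HAUS1, a gene of the mitotic spindle. At the canonical TSS, ATP5F1A had folds of 6.52 and 5.62 in abemaciclib and no peak in DMSO. ATP5F1B had no peak in any library, with its nearest summits 9.49 and 9.46 kb away. ATP5PB and ATP5PO, of the stalk that holds the head, and the retrocopy ATP5MGL had none either. ATP5MK, a small membrane subunit, had a peak in DMSO replicate 2 at 7.05 and in abemaciclib at 15.0 and 10.1, at a window shared with PDCD11. ATP5PF, of the stalk, was gained at 25.4 and 27.6, at the promoter it shares with GABPA, which encodes the ETS factor named above. ATP5F1D, a subunit of the central stalk, had a peak in abemaciclib replicate 1 only, at 4.56, with its summit at −1510 bp from the TSS.

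**Figure D3:**
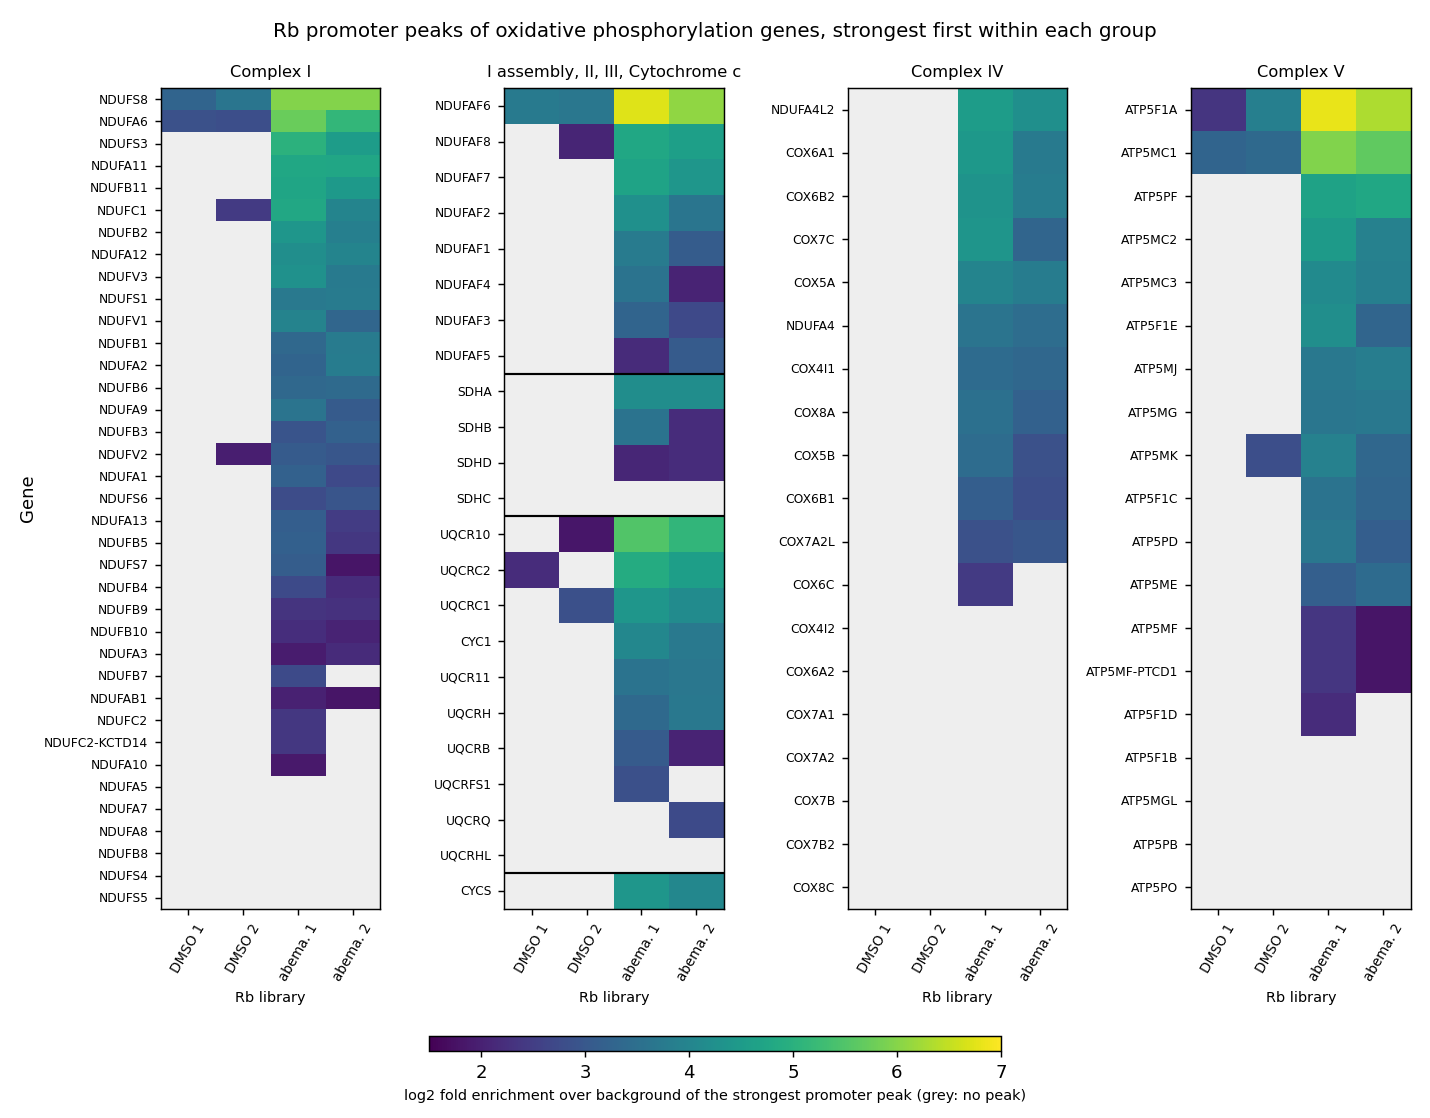
Fold enrichment over background of the strongest Rb promoter peak (colour, log2 scale) of oxidative phosphorylation genes (rows, by complex, strongest first) in the 4 Rb libraries (columns), with grey for no peak. The DMSO columns are mostly grey, complexes II and IV have no DMSO peak, and NDUFS8, NDUFA6, NDUFAF6, ATP5F1A and ATP5MC1 have a peak in every column. Folds are ratios within a library.

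The genes with a DMSO peak had, on median, the stronger abemaciclib peaks, though the ranges overlapped. In abemaciclib replicate 1 the 12 genes had a median fold of 37.6 (8.51 to 112), the 60 gained genes 12.1 (3.80 to 32.6), and the 7 genes called in that library only 5.21 (3.67 to 7.16). In replicate 2 the medians of the first 2 classes were 29.6 (7.83 to 80.4) and 10.0 (3.49 to 27.6). The classes are themselves set by peak calling, so this order is a description. Across all bound genes, oxidative phosphorylation promoters had peaks of ordinary strength in abemaciclib, with median folds of 12.3 and 11.6 against 13.5 and 12.4 for all coding genes. Of their peaks, 9.09% and 8.33% were in the strongest 10% of the list, against 13.2% and 12.4%. In the DMSO lists the medians were 8.45 over 6 peaks and 7.05 over 11, against 6.06 and 5.96.

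Median peak widths in abemaciclib were 827 and 830.0 bp, against 902 and 839 bp for all coding genes. Summits clustered about the canonical TSS. Within 500 bp of it lay 94.9% of the summits in abemaciclib replicate 1 and 95.8% in replicate 2, against 89.8% and 89.7% for the other coding genes. Upstream of it lay 39 of 78 summits in replicate 1 and 38 of 72 in replicate 2.

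**Figure D4:**
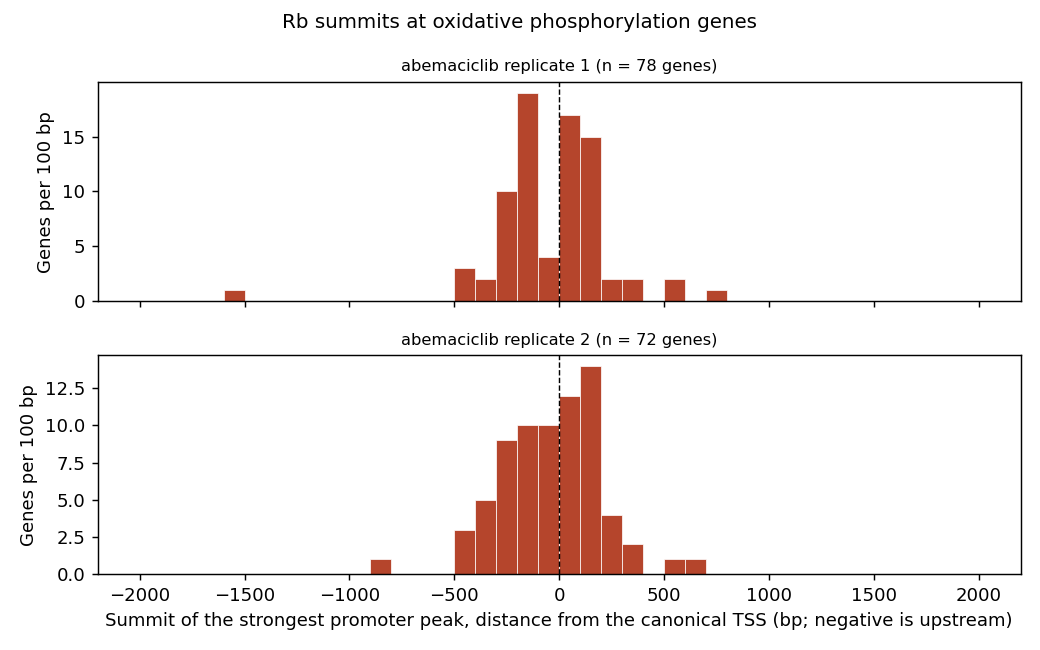
Distance of the summit of the strongest promoter peak from the canonical TSS (x axis, bp, negative is upstream) for oxidative phosphorylation genes bound there in abemaciclib replicates 1 (n = 78) and 2 (n = 72), as genes per 100 bp (y axis). In replicate 1, 94.9% of the summits lie within 500 bp, and in replicate 2, 95.8%.

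Among the 19 genes with no peak, 7 were restricted isoforms or retrocopies and 12 were standard subunits. Of the 12, 9 had a CpG-rich TSS region, and of the 7 only COX6A2 did. Of the 3 standard subunits without one, NDUFA5 was near the limit, with 49.7% GC, and NDUFS4 and COX7B had 47.4% and 40.6%. The TSS regions of ATP5F1B, ATP5PB, ATP5PO, COX7A2, NDUFA7, NDUFA8, NDUFB8, NDUFS5 and SDHC were CpG-rich and still had no called peak. Of the 19, 14 had a window of their own.

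The letters of the classical activators were counted from 250 bp before to 50 bp after the canonical TSS. Only exact copies were counted, so promoters with near matches fall among those without. The printed stretches of CYCS, SDHB and COX5B, for instance, hold GCATGCGC, part of the NRF1 letters on the other strand, and had no NRF1 match. The NRF1 letters were found in 11 of the 99 promoters (11.1%), against 2.70% of all coding genes and 3.91% of those with a CpG-rich TSS region. The ETS letters were found in 26.3%, against 14.1% and 19.1%, and the YY1 letters in 12.1%, against 2.84% and 3.94%. The E2F letters were found in 31.3%, against 17.1% and 22.9%. CCAAT was about as common as elsewhere, in 32.3%, against 36.0% and 35.0%.

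These matches were set beside the peak calls as a description. The letters were searched at the canonical TSS, whereas a peak was called at any TSS. NDUFAF6, with the E2F letters, and ATP5F1A, with the ETS letters, thus count with DMSO peaks that lay at alternative starts. The oxidative phosphorylation shares cover all 99 genes, 13 of them with no CpG-rich TSS region. The coding genes set beside them were all CpG-rich. Of the 11 promoters with the NRF1 letters, 9 were gained (ATP5F1C, ATP5MC2, ATP5ME, COX6A1, NDUFAF5, NDUFB4, NDUFS6, NDUFS7 and SDHD), and NDUFA5 and NDUFA8 had no peak. A peak in both abemaciclib libraries was thus found at 81.8% of oxidative phosphorylation promoters with these letters and 71.6% of those without, close to the 82.4% and 72.4% of CpG-rich coding genes. None had a DMSO peak, against 23.3% of CpG-rich promoters with these letters. Of the 26 with the ETS letters, 23 were bound in both abemaciclib libraries (88.5%), compared with 67.1% of the 73 without. The 73 hold all 9 restricted isoforms and retrocopies, 7 of which had no peak, so the groups differ in make-up. Among CpG-rich coding genes these shares were 80.3% and 71.1%. Of the 12 with the YY1 letters, 9 were bound in both (75.0%) and 3 had a DMSO peak, compared with 72.4% and 10.3% of the 87 without. Among CpG-rich coding genes, 87.9% of those with the YY1 letters and 72.2% of those without were bound in both, and 27.6% and 19.3% had a DMSO peak. Of the 31 with the E2F letters, 24 were bound in both (77.4%) and 5 had a DMSO peak (16.1%), compared with 70.6% and 10.3% of the 68 without. Among CpG-rich coding genes the shares bound in both were close to these, at 79.9% with the E2F letters and 70.7% without. Their shares with a DMSO peak were 29.1% with the E2F letters and 16.8% without.

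CCAAT was compared between the classes of genes, with NDUFAF6 and ATP5F1A again classed by DMSO peaks away from the canonical TSS. Of the 12 genes with a DMSO peak, 7 had it (58.3%), compared with 31.7% of gained genes and 31.6% of those with no peak. Across all coding genes these shares were 45.8%, 35.0% and 34.7%. Counting promoters with at least 3 CCAAT matches, a threshold chosen after the sequences were seen, gave 5 of the 99 (5.05%), against 3.89% of all coding genes. They were NDUFAF8 with 6 matches, ATP5MC1 and NDUFS8 with 4 each, all with a DMSO peak, the gained ATP5F1E with 4, and ATP5F1B with 4 and no peak. By class they were 3 of the 12 genes with a DMSO peak, 1.67% of the gained and 5.26% of those with no peak, against 10.1%, 3.93% and 2.08% across all coding genes.

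**Figure D5:**
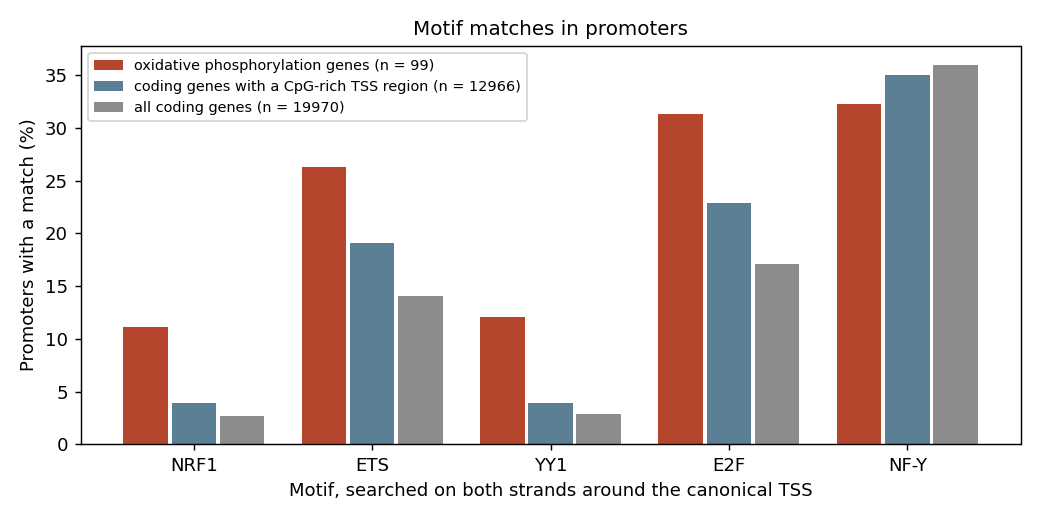
Share of promoters with a motif match (y axis, %) for 5 motifs (x axis) in the 99 oxidative phosphorylation genes, in coding genes with a CpG-rich TSS region and in all coding genes. The NRF1, ETS, YY1 and E2F letters are more common in the oxidative phosphorylation genes, at 11.1%, 26.3%, 12.1% and 31.3%, and CCAAT is not, at 32.3%.

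Genes of related function that the symbol rule left out were examined in the same way. Of 50 other assembly factors and chaperones of the complexes, 43 (86.0%) were bound in both abemaciclib libraries and 14 (28.0%) in DMSO, against 72.7% and 12.1% of the oxidative phosphorylation genes and 52.7% and 13.9% of all coding genes. A peak in all 4 libraries was found at ACAD9 and TMEM186 (complex I assembly), BCS1L (complex III), COX14, CMC2 and HIGD2A (complex IV) and ATPAF2 (complex V). COX14 ranked best of them in abemaciclib replicate 1, at 143, with folds of 9.54 and 10.9 in DMSO and 86.8 and 63.5 in abemaciclib. In 1 DMSO library, peaks were found at ATPAF1, COX15, FOXRED1, SCO2, SDHAF1, TMEM70 and UQCC2. NUBPL, SDHAF3 and UQCC1 had no peak.

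Of 14 regulators of mitochondrial gene expression, 13 had a peak in both abemaciclib libraries (92.9%), against 52.7% of all coding genes. ESRRA, a nuclear receptor that activates oxidative phosphorylation genes, was bound in all 4, with folds of 4.24 and 5.37 in DMSO and 47.7 and 39.4 in abemaciclib. GABPB1, TFAM, TFB1M and TFB2M had a peak in DMSO replicate 2 only. TFAM, which packages and transcribes mitochondrial DNA, had folds of 5.14 there and 41.1 and 25.4 in abemaciclib, and TFB1M of 10.8, 37.7 and 32.6. GABPA, NRF1, POLG, POLRMT, PPARGC1B, PPRC1, TWNK and YY1 were gained, NRF1 itself with folds of 34.2 and 21.0. PPARGC1A, the coactivator that induces mitochondrial biogenesis in energy-demanding tissues, had no peak.

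Of 17 genes in the citrate cycle list, 15 were bound in both abemaciclib libraries (88.2%). This share was 72.7% of the oxidative phosphorylation genes and 52.7% of all coding genes. CS and FH were among the citrate cycle genes bound in all 4. The list includes PDHA1, PDHB, PDHX and DLAT of the pyruvate dehydrogenase complex, which feeds the cycle, and these were gained. CS, which encodes citrate synthase, had folds of 7.35 and 4.19 in DMSO and 46.0 and 46.4 in abemaciclib. IDH3A had a peak in 1 DMSO library, and IDH3B and MDH2 had none. Of 17 glycolysis genes, 14 were bound in both abemaciclib libraries (82.4%) and 7 had a DMSO peak, 5 of them in 1 DMSO library only. GAPDH, with folds of 7.26 and 7.09 in DMSO and 68.2 and 77.9 in abemaciclib, and LDHA were bound in all 4. ALDOA, ENO2, PFKM, PFKP and PKM had a peak in 1 DMSO library, HK2 had a peak in abemaciclib replicate 2 only, and ALDOC and LDHB had none. A DMSO peak was found at 7 of 17 glycolysis genes (41.2%) and at 4 of 17 in the citrate cycle list (23.5%). The share was 12.1% of the oxidative phosphorylation genes and 13.9% of all coding genes. In all 4 libraries the shares were 11.8%, 17.6%, 5.05% and 6.41%, in the same order. The lists are short and the differences were not tested.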

How the data were processed

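Rb CUT&RUN was measured in 4 libraries of ZR-75-1 cells, 2 per treatment, with 1 IgG2a library. Groups and replicate numbers came from the sample titles. As the study's methods describe, the authors cleaned the read pairs with BBDuk, mapped them to hg38 with Bowtie2 2.3.4.1, removed mitochondrial and blacklisted reads, kept duplicates and called peaks per library with MACS2 2.2.7.1 at q of at most 0.05 against IgG (versions from the submitters' processing notes). Each deposited list gives the position and summit of each peak, a fold enrichment (a ratio of pileup to local background, as the authors' peak caller wrote it), and the −log10 p-value and −log10 q-value that the authors' peak caller assigned. The lists hold no counts, so no count model could be run and the depth of each library is not known from them.

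Promoters (2000 bp before to 500 bp after any GENCODE 44 TSS, at least 1 bp of overlap) and calls were computed with Python 3.11.15, pandas 2.3.3, numpy 2.4.6 and scipy 1.17.1, and the calling code was tested on simulated data. No peak ended beyond its chromosome in the reference used. A gene's value is its promoter peak with the highest −log10 p, and ranks follow −log10 p. Libraries were compared by a two-sided exact permutation test, and shares carry 95% Wilson intervals, which cover counting error only. Sequences came from the hg38 genome at the GENCODE canonical TSS, and at 14546 of 14546 windows shared with the RefSeq promoter table the letters were equal. Of the listed genes outside the symbol rule, 1, COX23, was not found under that symbol.

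The oxidative phosphorylation genes, the other lists and the motifs were chosen with earlier results of these data known. Some genes are not reported here by name. Named were genes with a DMSO peak, with no peak or with a peak in 1 abemaciclib library only, the 10 gained genes with the best mean rank, the paralogue pairs, the complex II genes, CYC1 and CYCS, all regulators, and, of the other lists, genes with a DMSO peak or none. COX14, HK2, the genes of 1 motif and others outside this rule were named after their values were seen. Alternatives were a stricter q, equal list size, other windows and TSSs, removal of IgG2a overlaps, shared windows or restricted isoforms, CpG-rich genes only, each library left out and a replicate block. The labels give only a replicate number, while the study describes separate cultures for each replicate.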

Additional observations from a re-analysis of the deposited data

How the results depend on the processing

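Of 135 alternative values of 10 results, 116 were classed as not changed, 18 as moved and 1 as reversed. Of those classed as moved, 10 concern single complexes. Values classed as not changed could still differ from the main value, as did the gained differences of 13.2 and 15.0 points given below. The difference from other coding genes in the share bound in all 4 libraries was negative in the main setting. It was positive at q of at most 1e-05, at equal list size and among genes with a window of their own, CpG-rich or not. These changes of sign were also classed as not changed. At equal list size (the 1438 strongest peaks of each library) the difference in genes bound was 0 and the number gained 1. The gained difference from other coding genes was −0.107 percentage points, classed as a reversal. The gained shares there, 1.01% and 1.12%, were too low for an excess to be seen or called absent. At q of at most 1e-05 the gained difference was 11.9 points. It was 13.2 points among CpG-rich genes, 15.0 among genes with a window of their own and 5.94 among CpG-rich genes with a window of their own, the last an alternative chosen after seeing the data. Without genes sharing a window, 24 of the remaining 48 genes were gained and 3 were bound in all 4 libraries; with the canonical TSS only, 3 were bound in all 4, since NDUFAF6 and ATP5F1A became gained. Leaving out each library gave differences in genes bound of 64.5 to 70.5, 61 to 67 genes gained, 5 to 11 bound in all remaining libraries (11 without DMSO replicate 1), gained differences of 21.4 to 23.6 points and bound-in-all differences of −1.80 to −1.26. With the replicate block the mean difference was 67.5 genes (exact sign-flip p = 0.5, the smallest for 2 pairs); the labels do not state that the numbers pair libraries, and 2 pairs are too few to show it. The cause of these shifts was not tested, beyond fewer peaks or genes entering by construction.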

Other observations

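Outside the promoter windows, Rb peaks overlapped 3 oxidative phosphorylation genes, each in abemaciclib alone. ATP5F1D had one at chr19:1244643-1245532 in replicate 1 (fold 7.02) and at chr19:1244630-1245177 in replicate 2 (fold 3.91), both across the 3′ end of the gene, and the summit of replicate 1 lay past that end. NDUFA4L2 had one in replicates 1 and 2 at folds of 6.04 and 7.89, besides the promoter peaks given above. UQCRC1 had one in replicate 1 at a fold of 4.23.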
